A study of Mus musculus with 30 samples.

Results

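Muscle wasting runs through a small set of ubiquitin ligases and the transcriptional regulators that control them, and 10 such genes were followed here in the quadriceps of mice lacking Gaa, a model of Pompe disease. The 6 ligases are Trim63, Fbxo32, Fbxo30, Fbxo21, Cblb and Traf6, and the 4 regulators are Foxo1, Foxo3, Hdac4 and Runx1. They were taken by gene symbol, with no measured value used, from the 17420 genes of the deposited table. All 10 were found, and all 10 passed the filter on low values, since the lowest of their quadriceps values was 1.84 and the filter asked for a signal of at least 1 in 3 libraries.

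PolyA RNA was sequenced from the quadriceps and whole spinal cord of 15 males at 4 months of age, 3 in each of 5 groups. Mice with intact Gaa (WT) and mice without it (KO) were compared on a B6;129 background, written B6129 below. WT mice, KO mice and treated KO mice were compared on a B6;129;DBA2/J background, called mixed below, and all 3 of these groups carry the Ltbp4D36/D36 allele pair. The treated KO mice had received AAV9 with a human GAA transgene (secreted, driven by the liver-muscle promoter LiMP) through the temporal vein at postnatal day 1 to 2, and every other animal was untreated. The B6129 libraries form series A of the column names and the mixed libraries series B, and an effect of background cannot be told apart from one of series. Each library is 1 animal, so p-values set a difference against the spread between these animals.

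A ubiquitin ligase (E3) picks the protein that is to be tagged with ubiquitin, most often for destruction by the proteasome. In skeletal muscle Trim63 (MuRF1) and Fbxo32 (atrogin-1) are the classic atrophy ligases, and their transcripts are known to rise in fasting, in denervation and under glucocorticoids. FOXO transcription factors switch them on when insulin and IGF1 signalling through AKT is low, while HDAC4 and RUNX1 belong to the programme that a muscle starts when it loses its nerve.

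The promoter of Trim63 is shown because it holds the letters of both a FOXO site and a glucocorticoid receptor half-site, and that of Runx1 because its transcript differed most between genotypes. Each window is the 250 bases before a transcription start in RefSeq on GRCm38.p6, written 5′ to 3′ on the strand of the gene. That of Trim63 lies at chr4:134314870-134315119 on the plus strand, and that of the second Runx1 start at chr16:92697330-92697579 on the minus strand. Capitals mark TGTTCT, the half-site, followed without a gap by TGTTTAC, the reverse of the FOXO letters GTAAACA.
Trim63: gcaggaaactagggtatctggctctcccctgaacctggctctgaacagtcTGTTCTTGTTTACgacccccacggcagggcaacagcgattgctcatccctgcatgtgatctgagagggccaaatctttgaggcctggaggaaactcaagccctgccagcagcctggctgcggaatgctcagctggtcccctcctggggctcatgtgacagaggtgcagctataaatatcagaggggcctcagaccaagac
Runx1: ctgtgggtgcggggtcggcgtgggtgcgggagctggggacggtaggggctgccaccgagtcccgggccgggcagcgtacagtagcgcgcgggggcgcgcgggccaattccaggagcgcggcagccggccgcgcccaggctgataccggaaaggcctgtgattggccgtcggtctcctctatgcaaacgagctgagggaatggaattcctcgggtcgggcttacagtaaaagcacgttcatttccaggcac

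Promoter windows were given for 9 of the 10 genes, all but Fbxo32, and 10 windows were searched on both strands because Runx1 has 2. GTAAACA was found in 1 of them, that of Trim63, where it begins 194 bases before the start, and in 3.17% of all 32851 mouse promoter windows of that length. TGTTCT was likewise found in the Trim63 window alone, 200 bases before the start, and in 16.1% of all windows. The RUNX letters TGTGGT were found in the Traf6 window alone, 73 bases before the start, and in 14% of all windows. The E-box CANNTG, bound by myogenic factors such as MYOG, was found in 5 of the 10 windows (Trim63, Cblb, Traf6, Foxo1 and 1 of Runx1) and in 66.2% of all windows. These are matches of letters only.

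The 15 quadriceps libraries held 16854080 to 37136090 reads, and 1 read is worth 0.0329 to 0.072 in the deposited signal, which is a read count scaled to library size. Mouse Gaa was at 11.6 to 18.9 in the 9 KO libraries and at 169 to 308 in the 6 WT libraries, which do not overlap. Ltbp4, whose altered allele the mixed groups carry, was at 72.2 ± 14.6 in mixed WT and 70.7 ± 6.47 in B6129 WT mice, and a level per gene does not check that allele. All 10 markers of skeletal muscle fibres were in the table with a summed signal of at least 137401 in every library, against a summed signal of at most 64.4 for 8 markers of neurons and glia. The quadriceps library of mixed WT animal 4 stood apart, with 4.47% of the tested genes more than 2-fold from the mean of its group mates, against 1.1% to 3.13% in the other 14 libraries. Foxo1 stood apart in treated animal 22, and values without these libraries are given beside the main results they moved.

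Levels are deposited signal, as mean ± SD of 3 libraries, and differences are log2(signal + 0.5) ± SE from limma, with p adjusted by Benjamini-Hochberg over 14113 tested genes. A gene is called where its adjusted p is under 0.05. In KO against WT on B6129, 2 of the 10 genes were called, 1 higher (Runx1) and 1 lower (Cblb), where 35.8% of all tested genes were called. On the mixed background the same count was 2 of 10, again Runx1 higher and Cblb lower, where 39.4% of all genes were called. In treated against untreated KO mice, 3 of 10 were called, with Cblb and Fbxo21 higher and Runx1 lower, where 40.6% of all genes were called. All 3 shares lie below the share over all genes. On B6129 this order turned under 2 alternatives. A fit of the B6129 groups alone called 6 of the 10, against 41.2% of all genes. The fit without mixed WT animal 4 and treated animal 22 called 5 of the 10, against 39.5%. With treatment it turned in the fit of the 2 groups alone, with 4 of the 10 called against 34.6% of all genes. On the mixed background it turned without WT animal 3, with 4 of the 10 called against 5013 of the 14113. The order is therefore not read as a trait of the 10 genes.

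**Figure D1:**
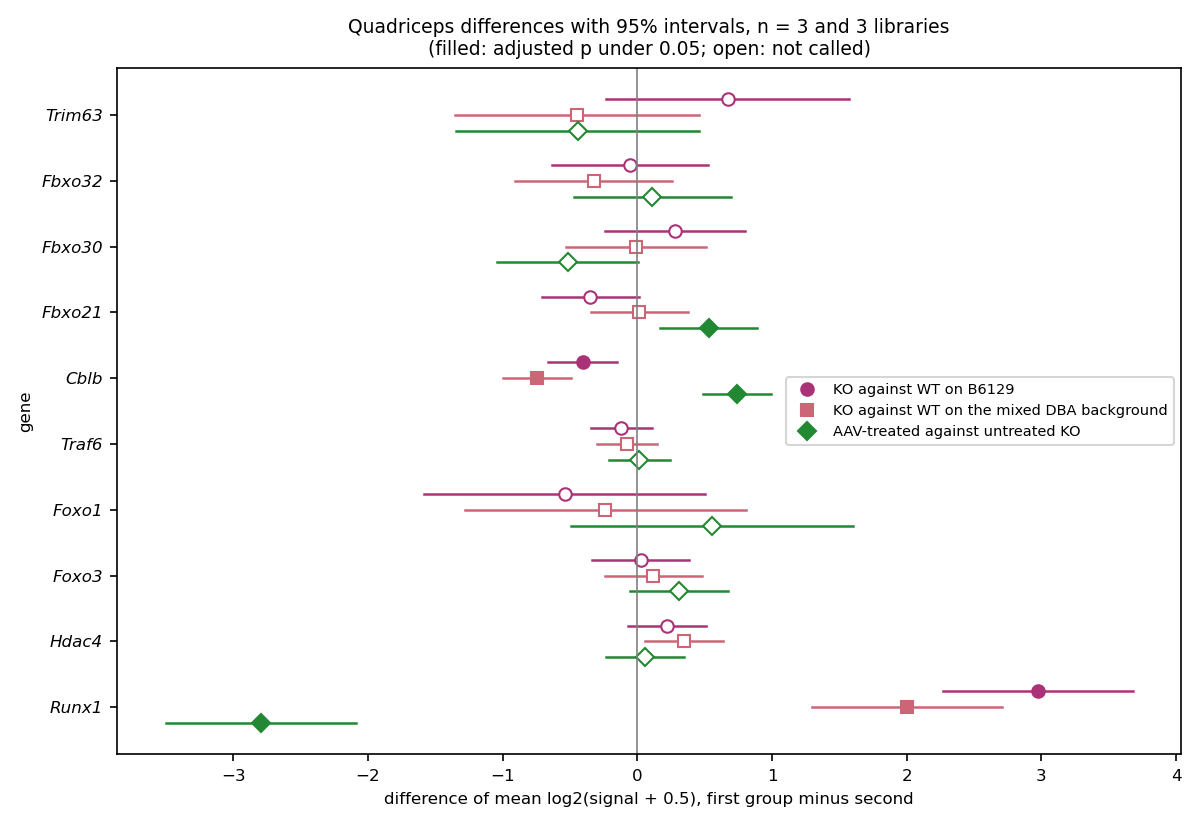
Difference of mean log2(signal + 0.5) for each of the 10 genes (vertical axis) in 3 comparisons of quadriceps, with 95% intervals from limma and 3 libraries in each group. Filled symbols are called and open symbols are not. Runx1 lies far to the right in both KO comparisons and far to the left after treatment, Cblb does the reverse at a smaller size, and the intervals of Trim63 and Foxo1 are the widest of the remaining genes.

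Complete separation of the 3 and 3 libraries was counted as well. On B6129 it held for 6 of 10 genes, with Trim63, Fbxo30 and Runx1 above WT and Fbxo21, Cblb and Foxo1 below, against 53.9% of all tested genes. On the mixed background it held for 3 of 10 (Runx1 and Hdac4 above, Cblb below), against 46.4% of all genes. Between treated and untreated KO mice it held for 4 of 10 (Cblb and Fbxo21 above, Runx1 and Fbxo30 below), against 49.4%. The median difference over the 10 genes was -0.02 on B6129, -0.04 on the mixed background and 0.08 with treatment, beside -0.02, -0.04 and 0.05 over all genes.

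In other comparisons none of the 10 genes was called. Treated KO against WT mice gave 0 of 10 by limma and by edgeR, where 2.98% of all genes were called (273 higher and 148 lower, or 194 and 196 after centring each library on its median). An unadjusted p under 0.05 was found for 5 of the 10 (Fbxo30, Fbxo21, Foxo3, Hdac4 and Runx1) and for 3105 of all 14113 tested genes. The change in the KO effect from B6129 to mixed mice gave 0 of 10 by both tools, where 0.283% of all genes were called. At an unadjusted p under 0.05 were 0 of the 10 and 1537 of the 14113. Mixed WT against B6129 WT mice gave 0 of 10 by limma, where 2.57% of all genes were called, and 2 of the 10 and 2517 of the 14113 had an unadjusted p under 0.05. In that comparison edgeR called 1 gene, Trim63, at 1.78 (adjusted p = 0.0483), and limma without mixed WT animal 1 called Runx1 at 1.23 (adjusted p = 0.0484).

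**Figure D2:**
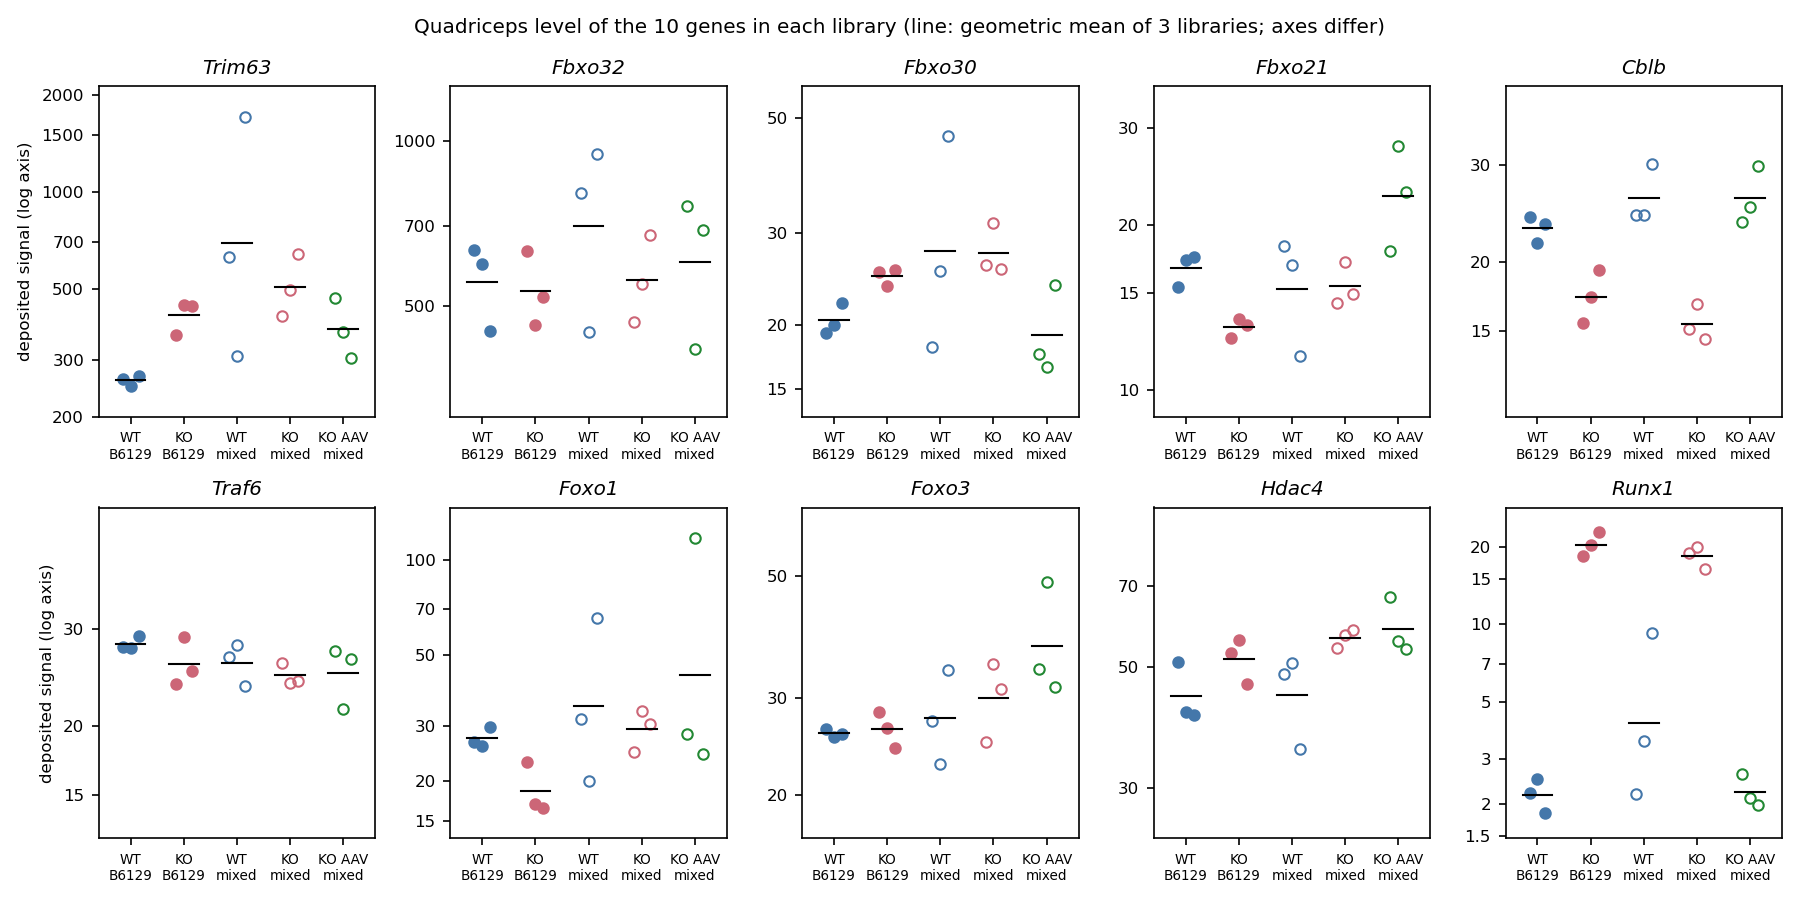
Deposited signal (log axis, ranges differ between panels) of the 10 genes in each of the 15 quadriceps libraries, by group, with the geometric mean of 3 libraries as a line. Filled points are B6129 libraries and open points mixed libraries. Runx1 separates both KO groups from the rest, and single high points stand out in mixed WT (Trim63, Fbxo30, Foxo1, Runx1) and in treated KO mice (Foxo1, Foxo3).

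Levels were compared between genes only per kilobase of exon. In B6129 WT quadriceps Trim63 stood at 91.2 ± 3.16 per kilobase and Fbxo32 at 80.2 ± 13.8, a gap smaller than the SD of Fbxo32. Fbxo30 followed at 3.92, Traf6 at 3.58, Foxo3 at 3.42, Foxo1 at 3.16, Fbxo21 at 3.01, Hdac4 at 2.81 and Cblb at 2.21 per kilobase. Runx1 was lowest, at 0.181 ± 0.0279 per kilobase. The 2 classic atrophy ligases were thus the abundant ones in unchallenged muscle, and the RUNX factor was close to silent.

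Trim63 (ENSMUSG00000028834, chr4:134315120-134329629, GRCm38) encodes MuRF1, a ligase that tags proteins of the thick filament. Its signal in B6129 was 261, 249 and 267 in WT and 359, 446 and 440 in KO mice. All 3 B6129 KO libraries were above all 3 WT libraries, and the B6129 WT libraries were the 3 lowest of all 15. The difference was 0.67 ± 0.42, a 1.59-fold higher level, which was not called (adjusted p = 0.234) in the fit whose spread is shared by all 5 groups. It was called in a fit of the B6129 groups alone (adjusted p = 0.000893), without mixed WT animal 4 (adjusted p = 0.0354), and without that animal and treated animal 22 (adjusted p = 0.042). The value of the difference is the same in all of these, because none of them removes a B6129 library.

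On the mixed background the Trim63 signal was 628, 309 and 1711 in WT, 410, 497 and 641 in KO, and 466, 366 and 305 in treated KO mice. The KO libraries lay inside the WT range and 1 treated library just under it, and WT animal 4 had the highest value of all 15. KO against WT differed by -0.45 ± 0.42 (adjusted p = 0.424) and treated against untreated KO by -0.44 ± 0.42 (adjusted p = 0.429). Without mixed WT animal 4 the KO difference was 0.20 (adjusted p = 0.569), and without mixed WT animal 3 it was -1.03 (adjusted p = 0.0246), so the sign and the call hang on which WT library is kept. Treated KO against WT was -0.89 ± 0.42 (adjusted p = 0.233), -1.47 without mixed WT animal 3 (adjusted p = 0.0362) and -0.24 without mixed WT animal 4 (adjusted p = 0.676). Mixed WT against B6129 WT mice gave 1.42 ± 0.42 (adjusted p = 0.0922), which became 2.00 without mixed WT animal 3 (adjusted p = 0.00559) and 0.76 without mixed WT animal 4 (adjusted p = 0.205).

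Fbxo32 (ENSMUSG00000022358, chr15:58175879-58214932) encodes atrogin-1, an F-box protein whose targets include the translation factor eIF3f. Its signal was 632, 595 and 450 in B6129 WT, 630, 462 and 520 in B6129 KO, 802, 448 and 947 in mixed WT, 468, 549 and 673 in mixed KO, and 761, 417 and 688 in treated KO mice. Every group overlapped every other. The differences were -0.05 ± 0.27 on B6129, -0.32 ± 0.27 on the mixed background and 0.11 ± 0.27 with treatment (adjusted p = 0.898, 0.366 and 0.773). Single libraries moved them without a call: on the mixed background Fbxo32 was -0.10 without WT animal 4 (adjusted p = 0.8) and -0.64 without WT animal 3 (adjusted p = 0.0535). With treatment it was 0.38 without treated animal 22 (adjusted p = 0.301), 0.02 without animal 24 and -0.06 without animal 21. The 95% interval on the mixed background ran from -0.91 to 0.26, so a fall of up to 0.91 or a rise of up to 0.26 is not distinguished from none. An antisense gene, Gm15943, overlaps exons of Fbxo32 and is also in the table, and the library kit does not keep the strand, so reads over the shared stretch cannot be assigned between the 2.

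Fbxo30 (ENSMUSG00000047648, chr10:11281330-11298052) encodes MUSA1, an F-box ligase held down by BMP signalling. Its mean signal was 20.4 ± 1.4 in B6129 WT and 24.8 ± 0.936 in B6129 KO mice, with no overlap. The mixed groups gave 18.1, 25.4 and 46.2 in WT, 26.1, 31.4 and 25.6 in KO, and 17.6, 16.6 and 23.8 in treated KO mice, so treated libraries were below all untreated KO libraries while WT spanned both. None of these differences was called: 0.28 ± 0.24 on B6129, -0.01 ± 0.24 on the mixed background and -0.52 ± 0.24 with treatment (adjusted p = 0.401, 0.979 and 0.106). The fit of the 2 groups alone called it on B6129 (adjusted p = 0.0278) and with treatment (adjusted p = 0.0367). The treatment difference was also called without mixed WT animal 1 (adjusted p = 0.0419) or animal 4 (adjusted p = 0.0117). Without animal 4 the mixed KO difference was 0.35 (adjusted p = 0.107). Treated KO against WT was -0.53 ± 0.24 for Fbxo30 (adjusted p = 0.223), and -0.83 to -0.16 leaving out 1 library of these groups.

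Fbxo21 (ENSMUSG00000032898, chr5:117976730-118010201) encodes SMART, another F-box ligase that FOXO factors induce in denervated muscle. It rose with treatment, from 14.4, 17.1 and 14.9 in untreated to 17.9, 27.8 and 22.9 in treated KO mice, a difference of 0.53 ± 0.17 or 1.44-fold (adjusted p = 0.0221). The groups did not overlap, but the lowest treated library was only just above the highest untreated one. The call was lost without untreated animal 6 (adjusted p = 0.0736) or 8 (adjusted p = 0.0582), and without treated animal 22 (0.38, adjusted p = 0.103) or 24 (adjusted p = 0.0571). Mixed WT mice had 18.3, 16.9 and 11.5, which overlapped both, and treated KO against WT was not called at 0.54 ± 0.17 (adjusted p = 0.0857), though it was without treated animal 21 (0.71, adjusted p = 0.0413).

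On B6129 Fbxo21 went from 15.4, 17.3 and 17.5 in WT to 12.5, 13.4 and 13.1 in KO mice, again with no overlap. That difference of -0.35 ± 0.17 was not called (adjusted p = 0.125), but was in the fit of the B6129 groups alone (adjusted p = 0.0185) and without mixed WT animal 4 and treated animal 22 together (adjusted p = 0.0229). Mixed KO against WT was 0.02 ± 0.17 (adjusted p = 0.952) for Fbxo21, and -0.18 without WT animal 4 (adjusted p = 0.366).

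Cblb (ENSMUSG00000022637, chr16:52031225-52208048) encodes a ligase that tags the insulin receptor substrate IRS1 in unloaded muscle and restrains T-cell activation. It was the 1 ligase called in all 3 comparisons, falling in KO and rising with treatment. The signal was 24.2, 21.7 and 23.4 in B6129 WT and 15.5, 17.3 and 19.4 in B6129 KO mice, a fall of 0.41 ± 0.12 on the log2 scale (0.755 of WT, adjusted p = 0.0157). On the mixed background it was 24.3, 24.4 and 30.2 in WT and 15.1, 16.8 and 14.5 in KO mice, a difference of -0.74 ± 0.12 (0.597 of WT, adjusted p = 0.000274). No untreated KO library of either background reached the lowest WT library.

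Treated KO mice had Cblb at 23.6, 25.2 and 29.9, above all untreated KO libraries (0.74 ± 0.12, 1.67-fold, adjusted p = 0.000221). They overlapped the WT libraries, and the difference from WT was -0.00 ± 0.12, with a 95% interval from -0.26 to 0.25. These 2 comparisons share the untreated KO mice or the WT mice with the KO comparison, so they are not independent of it. The B6129 call was lost without B6129 WT animal 4 (-0.37, adjusted p = 0.0554) or B6129 KO animal 1 (-0.33, adjusted p = 0.0701). The mixed call was kept without mixed WT animal 4 (-0.64, adjusted p = 0.00108), and the treatment call without treated animal 22 (0.77, adjusted p = 0.000842). The change in the KO effect from B6129 to mixed mice was -0.34 ± 0.17 and was not called (adjusted p = 0.497).

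Traf6 (ENSMUSG00000027164, chr2:101678429-101701669) encodes a ligase that builds signalling ubiquitin chains below cytokine receptors and feeds NF-kB. It was the steadiest of the 10, with a lowest signal of 21.5, a median of 26.5 and a highest of 29.1 over the 15 libraries, a 1.36-fold range. The groups overlapped in all 3 comparisons. KO against WT was -0.12 ± 0.10 on B6129 and -0.08 ± 0.10 on the mixed background, and treated against untreated KO was 0.01 ± 0.10 (adjusted p = 0.404, 0.596 and 0.926). The 95% interval for treatment ran from -0.21 to 0.24.

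Foxo1 (ENSMUSG00000044167, chr3:52268336-52353221) encodes the FOXO factor whose own transcript is known to rise with fasting. Its signal was 26.7, 25.8 and 29.6 in B6129 WT and 23.0, 17.0 and 16.5 in B6129 KO mice, with every KO library below every WT library. The mixed groups held 31.4, 20.1 and 65.5 in WT, 24.8, 33.3 and 30.4 in KO, and 28.3, 117 and 24.3 in treated KO mice. The values of 65.5 (WT animal 4) and 117 (treated animal 22) stood far above those of their mates, and the remaining 13 libraries lay between 16.5 and 33.3.

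None of the Foxo1 differences was called: -0.54 ± 0.49 on B6129, -0.24 ± 0.49 on the mixed background and 0.56 ± 0.49 with treatment (adjusted p = 0.418, 0.73 and 0.389). Without mixed WT animal 4 the mixed KO difference changed sign to 0.22 (adjusted p = 0.755), and without treated animal 22 the treatment difference changed sign to -0.16 (adjusted p = 0.765). With both left out the B6129 difference was called (adjusted p = 0.0261), as it was in the fit of the B6129 groups alone (adjusted p = 0.0137). Gm20402, an antisense gene, overlaps its exons but is not in the table.

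Foxo3 (ENSMUSG00000048756, chr10:42181841-42276755), the FOXO factor best known for switching on Fbxo32, ranged from 22.7 to 48.8 over the 15 libraries with a median of 27.3. The highest value was again treated animal 22, and the next 34.6, in a mixed KO mouse. Group means were 25.9 ± 0.447 and 26.4 ± 1.98 in B6129 WT and KO, 27.9 ± 5.48 and 30.2 ± 4.88 in mixed WT and KO, and 38.0 ± 9.4 in treated KO mice. The differences of 0.02 ± 0.17, 0.12 ± 0.17 and 0.31 ± 0.17 were not called (adjusted p = 0.926, 0.604 and 0.16), and the last was 0.12 without treated animal 22 (adjusted p = 0.586). Treated KO against WT was 0.43 ± 0.17 for Foxo3 (adjusted p = 0.155), and 0.24 to 0.57 leaving out 1 library of these groups.

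Hdac4 (ENSMUSG00000026313, chr1:91928779-92195699) encodes a histone deacetylase that accumulates in denervated muscle and represses the repressor of Myog. Its signal was 51.0, 41.4 and 40.8 in B6129 WT and 52.8, 55.9 and 46.5 in B6129 KO mice, which overlap. In mixed mice it was 48.5, 50.7 and 35.4 in WT, 54.0, 57.0 and 58.4 in KO, and 66.9, 55.7 and 53.9 in treated KO mice. Mixed KO libraries were all above mixed WT, and so were the treated libraries, 1 of which was the highest of all 15. The mixed KO difference of 0.34 ± 0.13 just missed the threshold (adjusted p = 0.0563). The other differences were 0.22 ± 0.13 on B6129 (adjusted p = 0.22) and 0.05 ± 0.13 with treatment (adjusted p = 0.779). Treated KO against WT was 0.40 ± 0.13 for Hdac4 and was not called (adjusted p = 0.108). The mixed KO difference was called after quantile normalization (0.43, adjusted p = 0.0257). It was also called without B6129 WT animal 4 (adjusted p = 0.0481), mixed WT animal 3 (0.44, adjusted p = 0.0304) or treated animal 21 (adjusted p = 0.0495). Without mixed WT animal 4 it was 0.18 (adjusted p = 0.237). A long noncoding gene on the other strand, Gm26720, overlaps its exons.

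Runx1 (ENSMUSG00000022952, chr16:92601466-92826149) encodes a runt-domain transcription factor that is nearly silent in innervated muscle, is induced by denervation and limits the wasting of denervated fibres. It had the largest changes of the 10 genes. The signal was 2.20, 2.51 and 1.84 in B6129 WT and 18.4, 20.3 and 22.8 in B6129 KO mice, a rise of 2.97 ± 0.33 or 7.85-fold on the log2(signal + 0.5) scale (adjusted p = 1.84e-05). In mixed mice it was 2.18, 3.51 and 9.24 in WT and 19.0, 19.9 and 16.4 in KO mice (2.00 ± 0.33, 4.01-fold, adjusted p = 0.000354). Every KO library was above every WT library, and the WT value of 9.24, from animal 4, lay between the 2 sets.

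With treatment Runx1 was at 2.61, 2.11 and 1.98, a difference of -2.80 ± 0.33, to 0.144 of the untreated KO level (adjusted p = 1.97e-05). The treated libraries lay within the range of the B6129 WT libraries or just above it. Treated KO against mixed WT was -0.79 ± 0.33 and was not called (adjusted p = 0.178). Without mixed WT animal 4 the mixed KO difference grew to 2.53 (adjusted p = 1.71e-06) and the treated difference from WT shrank to -0.27 (adjusted p = 0.485). The KO effect in mixed mice minus that in B6129 mice, -0.97 ± 0.46, was not called (adjusted p = 0.473). At 30 reads in the shallowest case and 692 in the deepest, Runx1 was the most thinly counted of the 10 genes. Its antisense gene Gm26626 overlaps its exons and is not in the table.

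Runx1 is also expressed in leukocytes and Cblb in lymphocytes, so markers of other cells were read beside them, and in bulk tissue fewer cells of a type and less RNA per cell cannot be told apart. Of 10 macrophage markers all 10 rose in KO mice on B6129, 9 rose on the mixed background and 9 fell with treatment. Their summed signal was 61.2 to 83.8 in B6129 WT, 317 to 412 in B6129 KO, 105 to 158 in mixed WT, 264 to 516 in mixed KO and 74.7 to 186 in treated KO mice, and each was read in every group. Runx1 and this sum were both higher in KO mice and both lower with treatment. Single libraries went both ways. The untreated KO library with the smallest sum (264) had the lowest Runx1 of the 6 (16.4), and that with the largest sum (516) had 19.0. Treated animal 21 had a sum of 186 and Runx1 at 2.61, while mixed WT animal 4 had a sum of 158 and Runx1 at 9.24. The part of macrophages in the Runx1 difference was not tested. Only 3 of 10 T-cell markers were in the table, with a summed signal of 1.77 to 8.2, and neither of the 2 tested was called in KO against WT on either background, while 1 of them fell with treatment.

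Other marker lists moved too. Of 10 fibre markers, 6 fell in each KO comparison and 7 rose with treatment, while after quantile normalization 2 fell on B6129, and 4 fell and 1 rose on the mixed background. Of 10 endothelial markers, 9 fell on B6129, 7 fell on the mixed background and 8 rose with treatment, the same direction as Cblb. Of 10 fibroblast markers, 6 and 4 rose in the KO comparisons and 1 fell with treatment. Satellite cell markers (6 tested) gave 2 higher on B6129, 1 lower on the mixed background, and 1 higher and 2 lower with treatment. Among Schwann cell (9 tested), adipocyte (6), red blood cell (5), other leukocyte (2) and neural (6) markers, the KO comparisons called 3 higher (2 Schwann and 1 adipocyte, both mixed) and 1 neural marker lower on each background. With treatment 1 neural marker was called higher. The 8 neural markers in the table summed to 48.2 to 64.4 in B6129 WT and 5.8 to 16.1 in B6129 KO mice. In mixed mice they summed to 27.6 to 53.0 in WT, 4.97 to 10.6 in KO and 30.3 to 47.5 in treated KO mice. Over the 6 neural markers tested the median difference was 0.76 on B6129, 0.11 on the mixed background and 0.24 with treatment. In the KO comparisons the sums thus fell while the median did not, so the sums do not speak for all of these markers. The part of the cells that these lists mark in the Cblb and Runx1 differences was not tested.

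The library of mixed WT animal 4 was read against its 2 group mates. It was 3.65 times their mean for Trim63, 3.25 times for Runx1, 2.55 times for Foxo1, 2.12 times for Fbxo30 and 1.52 times for Fbxo32, and 0.655 and 0.714 times for Fbxo21 and Hdac4. It was the highest of all 15 libraries for 4 of the 10 genes (Trim63, Fbxo32, Fbxo30 and Cblb), against 12% of all tested genes. Among 20 FOXO target genes it was the highest for 8, including Gabarapl1 (autophagy; 193 against at most 91.6 elsewhere), Eif4ebp1 (a brake on translation; 126 against at most 92.2) and Pdk4 (which shuts glucose oxidation; 4467 against at most 2470). These were picked after their values were seen.

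Treated animal 22 showed another pattern. Foxo1 was 4.45 times and Foxo3 1.49 times the mean of its mates, yet Trim63 was 0.949 times and Fbxo32 0.576 times, the lowest Fbxo32 value of all 15. High Foxo1 therefore went with high Trim63 in 1 of these animals and not in the other. Of 20 FOXO target genes only Klf15 was highest in animal 22, while 5 of 11 glucocorticoid-response genes were (Fkbp5, Per1, Tsc22d3, Klf15 and Zbtb16), against 9.43% of all tested genes. Fkbp5, an immunophilin of the receptor complex, stood at 189 there, and Per1, a clock gene, at 168 against at most 77.5 elsewhere. The glucocorticoid-response genes named here were picked after their values were seen. Of the 9 Schwann cell markers tested, 6 (66.7%) were highest in this library too. Schwann cell markers summed to 157 in this library and to 93.1 and 93.0 in its mates, and their part was not tested.

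**Figure D3:**
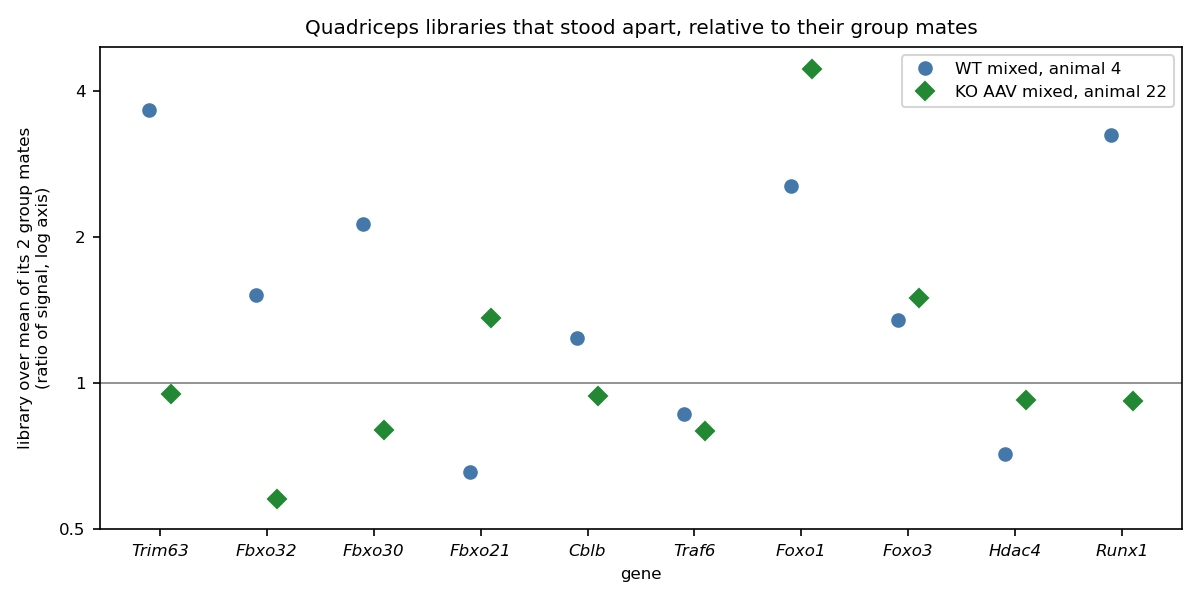
Ratio of the signal in 1 quadriceps library to the mean of its 2 group mates (log axis) for the 10 genes, in mixed WT animal 4 (circles) and treated animal 22 (diamonds). Trim63, Fbxo30, Foxo1 and Runx1 are over 2 times their mates in animal 4, and Foxo1 alone is in animal 22.

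The genes whose pattern over the 15 libraries was most like that of each of the 10 were ranked by Pearson r of log2(signal + 0.5) among 10160 genes with a mean signal of at least 5. The libraries share depth, batch and group, so r is a description only. Runx1 was most like Metrnl (r = 0.991), Sgms2 (0.99) and Tmem43 (0.987), and Metrnl, a secreted factor, likewise had 8.13 in mixed WT animal 4 against 3.87 and 5.20 in its mates. Cblb was most like Tbkbp1 (0.965), Ubn1 (0.964) and Hmgxb3 (0.955). Trim63 was most like Atf3 (0.956), a stress-induced transcription factor at 372 in mixed WT animal 4 and at 8.25 to 33.6 in the other 14 libraries, then Atp6v1b2 (0.933) and Flcn (0.921).

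Foxo1 and Foxo3 shared 2 of their 3 neighbours, Acer2 and Nrip1. Nrip1, a nuclear receptor corepressor, was 87 in treated animal 22 and 41.6 in mixed WT animal 4 and at most 35.7 elsewhere. Foxo3 itself was highest in treated animal 22 but was 33.6 in mixed WT animal 4, below 34.6 and 33.9 in other mixed animals, and r without these libraries was not computed. The third neighbour was Hecw2 (0.92) for Foxo1 and Map3k6 (0.895) for Foxo3. Fbxo21 was most like Crim1 (0.929), Usp2 (0.927) and Iars2 (0.889), and Fbxo30 like 2010111I01Rik (0.9), Slc16a1 (0.899) and Lmcd1 (0.894). Weaker neighbours were found for Traf6 (Bend3, 0.853), Hdac4 (Cptp, 0.839) and Fbxo32 (Zfp874a, 0.771).

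Gene lists of the connected pathways were read against all tested genes, of which 2359 rose and 2687 fell on B6129, 2414 rose and 3148 fell on the mixed background, and 3325 rose and 2411 fell with treatment. Among 23 other ubiquitin ligases studied in muscle, more fell than rose on the mixed background (12 and 3) and more rose than fell with treatment (11 and 2). On B6129 8 fell and 3 rose, a split that turned to 5 and 7 after quantile normalization. The median difference was -0.18 on B6129, -0.28 on the mixed background and 0.27 with treatment, beside -0.02, -0.04 and 0.05 over all genes, whose calls leaned the same way. Wwp1, a HECT ligase, fell from 446 ± 49.5 to 247 ± 24.6 in mixed KO (-0.85 ± 0.09, adjusted p = 1.08e-05) and was 438 ± 29.7 in treated KO mice. Fbxl22, an F-box protein of the sarcomere, rose from 3.63 ± 0.703 to 17.9 ± 3.36 (2.16 ± 0.28, adjusted p = 5.26e-05) and fell with treatment to 4.20 ± 0.97.

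**Figure D4:**
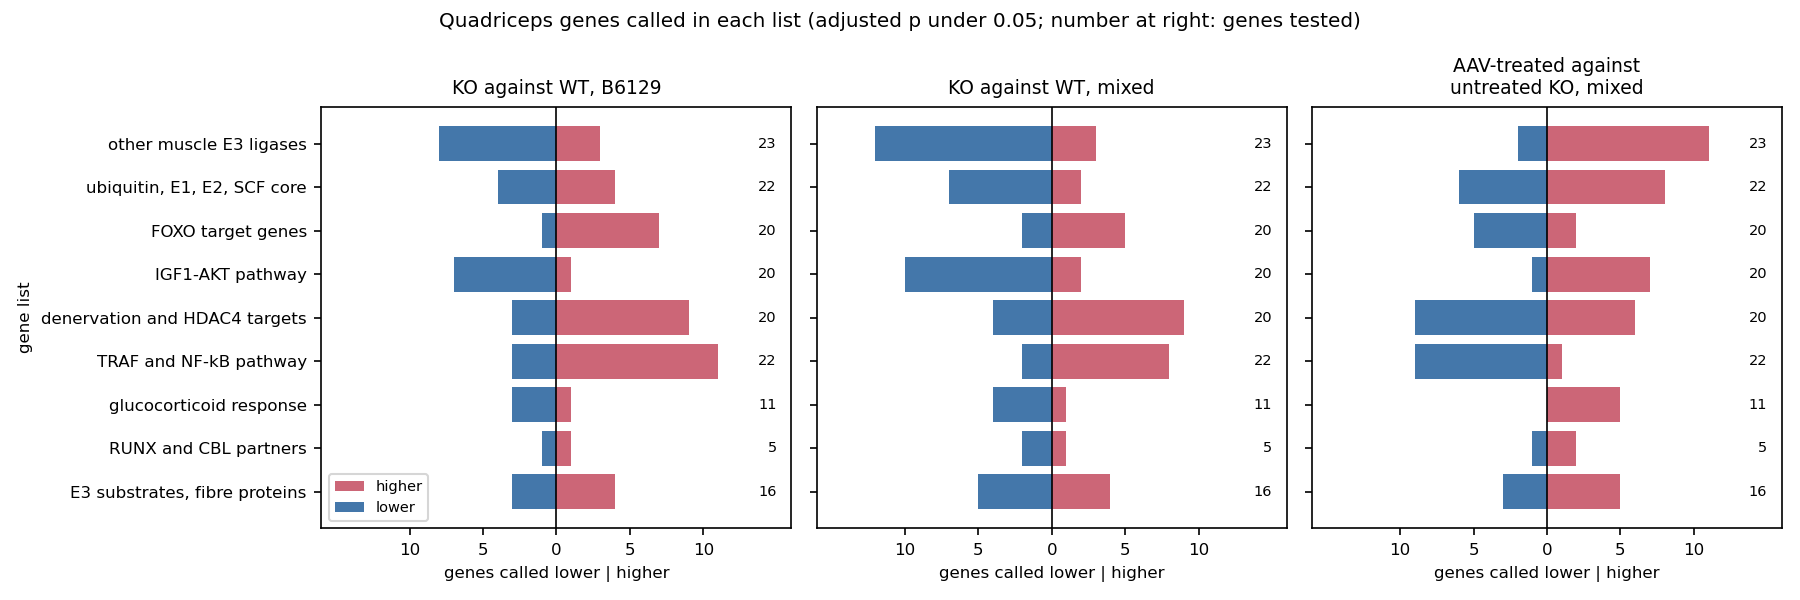
Number of genes called higher (right of 0) and lower (left of 0) in quadriceps for 9 gene lists in 3 comparisons, with the number tested at the right edge of each panel. Other muscle ligases and the IGF1-AKT pathway have more genes lower than higher in both KO panels, and the denervation and NF-kB lists have more higher. The lists hold no gene of the 10.

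The ubiquitin genes, E1 and E2 enzymes and SCF core that work with these ligases (22 tested) gave 4 higher and 4 lower on B6129, 2 and 7 on the mixed background, and 8 and 6 with treatment. After quantile normalization the splits were 6 and 1, 5 and 4, and 5 and 9. Rps27a, a ribosomal protein made fused to ubiquitin, rose in mixed KO from 205 ± 12.9 to 322 ± 14.3 (0.65 ± 0.07, adjusted p = 2.03e-05). The conjugating enzymes Ube2d3 (435 ± 16.6 to 330.3 ± 13.2, -0.40 ± 0.06, adjusted p = 9.72e-05) and Ube2g1 (-0.59 ± 0.10, adjusted p = 0.00045) fell.

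FOXO target genes other than the ligases (20 tested) gave 7 higher and 1 lower on B6129, 5 and 2 on the mixed background, and 2 and 5 with treatment, with medians of 0.22, 0.11 and -0.03. The 8, 7 and 7 genes called are near the shares over all genes (35.8%, 39.4% and 40.6%). Ctsl, the lysosomal protease cathepsin L, rose in mixed KO from 80.7 ± 4.59 to 173 ± 9.94 (1.10 ± 0.08, adjusted p = 8.77e-07) and fell with treatment to 97.2 ± 8.45. Gadd45a, a stress gene that HDAC4 also induces in denervated muscle, rose from 22.7 ± 9.07 to 88.1 ± 7.98 (2.01 ± 0.22, adjusted p = 1.22e-05) and fell to 27.0 ± 2.97 with treatment. Ulk1, the kinase that starts autophagy, went the other way, falling from 125 ± 38.1 to 53.9 ± 4.74 (-1.16 ± 0.16, adjusted p = 7.26e-05). The treatment split was 3 and 3 without treated animal 22, and 4 and 7 without mixed WT animal 4.

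The IGF1-AKT pathway that restrains FOXO (20 tested) gave 1 higher and 7 lower on B6129, 2 and 10 on the mixed background, and 7 and 1 with treatment. Foxo4, another FOXO factor, fell in mixed KO from 226 ± 34.2 to 109.5 ± 7.88 (-1.03 ± 0.10, adjusted p = 6.7e-06) and was 252 ± 1.16 in treated KO mice, unlike Foxo1 and Foxo3, which were not called. Tsc1 (-0.59 ± 0.08, adjusted p = 7.69e-05), a brake on mTORC1, and Rptor (-0.44 ± 0.08, adjusted p = 0.000644), a subunit of that complex, fell as well. The genes that fell thus include both brakes and drivers of mTORC1.

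Denervation-response and HDAC4-pathway genes (20 tested) gave 9 higher and 3 lower on B6129, 9 and 4 on the mixed background, and 6 and 9 with treatment. The muscle acetylcholine receptor subunit Chrna1 was 15.8, 11.7 and 12.7 in mixed WT and 80.0, 81.6 and 67.0 in mixed KO mice (2.47 ± 0.13, adjusted p = 6.69e-08), and 18.4, 20.0 and 16.1 after treatment, with no overlap between untreated KO and the other 2 groups. Ncam1, the adhesion molecule of denervated fibres, rose from 3.62 ± 0.83 to 31.0 ± 1.92 (2.95 ± 0.19, adjusted p = 2.98e-07). The receptor subunit Chrnd rose from 2.33 ± 0.604 to 33.1 ± 9.25 (3.55 ± 0.24, adjusted p = 4.02e-07) and fell with treatment to 3.52 ± 0.437. In mixed WT animal 4, where Runx1 was 9.24, Chrna1 was 12.7 and Ncam1 3.63, within the range of its mates.

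TRAF and NF-kB pathway genes (22 tested) gave 11 higher and 3 lower on B6129, 8 and 2 on the mixed background, and 1 and 9 with treatment, although Traf6 was called in none of them. Nfkb2, the precursor of the p52 subunit, rose in mixed KO from 15.3 ± 3.7 to 43.0 ± 5.81 (1.48 ± 0.15, adjusted p = 9.75e-06) and fell with treatment to 14.8 ± 1.59. Ikbkb, a kinase that frees NF-kB, rose from 24.5 ± 0.906 to 34.4 ± 2.08 (0.48 ± 0.07, adjusted p = 0.000125). Tab2, an adaptor that reads the chains TRAF6 builds, fell from 238 ± 33.9 to 122 ± 8.85 (-0.95 ± 0.10, adjusted p = 1.21e-05). The macrophage markers above moved in the same direction as Nfkb2 in all 3 comparisons, and their part was not tested.

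Glucocorticoid-response genes (11 tested) gave 1 higher and 3 lower on B6129, 1 and 4 on the mixed background, and 5 and 0 with treatment. The receptor gene Nr3c1 fell in mixed KO from 119 ± 9.57 to 80.6 ± 3.98 (-0.55 ± 0.08, adjusted p = 9.16e-05) and was 116 ± 6.72 in treated KO mice. Klf9 (-0.76 ± 0.13, adjusted p = 0.000452) and Zbtb16 (-1.09 ± 0.23, adjusted p = 0.00228), both targets of the receptor, fell too. Without mixed WT animal 4 the mixed split was 0 and 3, and without treated animal 22 the treatment split was 4 and 0.

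RUNX and CBL partners (5 tested) gave 1 higher and 1 lower on B6129, 1 and 2 on the mixed background, and 2 and 1 with treatment. Runx2 rose in mixed KO from 0.535 ± 0.0838 to 2.69 ± 0.416 (1.62 ± 0.24, adjusted p = 0.000147), a low level that rests on few reads, and Cbfb, the subunit that RUNX proteins bind DNA with, fell from 186 ± 31.4 to 108 ± 3.52 (-0.77 ± 0.12, adjusted p = 0.000196). Transcripts of proteins that the ligases are known to tag (16 tested) gave 4 higher and 3 lower, 4 and 5, and 5 and 3, and after quantile normalization 5 and 0, 6 and 0, and 2 and 8. The fast myosin Myh4 fell in mixed KO from 75018 ± 8432 to 36917 ± 2378 (-1.02 ± 0.17, adjusted p = 0.000371), Mybpc2, a myosin-binding protein of fast fibres, fell (-0.69 ± 0.13, adjusted p = 0.0013), and the intermediate filament Des rose (0.41 ± 0.10, adjusted p = 0.00622). After quantile normalization neither Myh4 (-0.23, adjusted p = 0.254) nor Mybpc2 (-0.20, adjusted p = 0.195) was called.

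In the spinal cord of the same animals Trim63 was close to absent, at 0.0983 to 0.99 or 4 to 31 reads a library, and did not pass the filter. The other 9 genes were tested among 15838. None was called in KO against WT on B6129, where 1.16% of all genes were called, although Runx1 differed by 0.74 ± 0.18 (adjusted p = 0.0591). In that comparison 2 of the 9 and 1733 of the 15838 had an unadjusted p under 0.05. On the mixed background 2 rose, where 13% of all genes were called. They were Runx1, from 0.831 ± 0.085 to 1.75 ± 0.34 (0.75 ± 0.18, adjusted p = 0.0154), and Traf6, from 10.5 ± 0.317 to 12.6 ± 0.694 (0.25 ± 0.07, adjusted p = 0.0382).

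With treatment 0 of the 9 genes were called in cord by limma, the 1 tool run there, and neither was any other gene (0% of 15838, with 1697 at an unadjusted p under 0.05). The 1 of the 9 with an unadjusted p under 0.05 was Runx1, at 1.02 ± 0.138 against 1.75 ± 0.34 in untreated KO mice (-0.56 ± 0.18, adjusted p = 0.246). Against WT, treated KO mice had 1 gene called, Traf6 at 13.5 ± 1.01 (0.35 ± 0.07, adjusted p = 0.00635), where 16.8% of all genes were called. Foxo1 in cord was highest in treated animal 22 (23.1), next in mixed WT animal 4 (20.4) and then in treated animal 24 (20.4), in a range of 12.8 to 23.1 over the 15 libraries. The treated cord library of animal 22 was joined by the animal number in its title, and its description names another column, as does that of animal 21, so its value carries that doubt. The difference between the tissues was not tested.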

How the data were processed

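The deposited table holds a linear signal for 17420 genes in 30 libraries. Per the submitters' processing notes, cutadapt, RSEM, edgeR and limma were used by the authors on GRCm38, with no versions. Each deposited signal equals (reads + 0.5) over a scaled library size: 100% of values gave whole reads within 0.001. Values were analysed as log2(signal + 0.5) in R 4.3.3, after dropping genes that reached a signal of 1 in fewer than 3 libraries of the tissue, by 1 limma 3.58.1 fit of 5 groups a tissue. The 95% intervals are for the difference of group means, with a spread between animals estimated over all 5 groups, and do not give the range of single animals. The recovered reads were also tested with edgeR 4.0.16, which called 5059, 5411 and 5516 genes in the 3 main comparisons. Alternatives were another pseudocount (2), filter (4 or none), scaling and fit, and leaving out libraries. Simulated data with planted changes were used to check the fit. In mixed KO against WT it found 24.7% of planted 1.5-fold and 67% of planted 2-fold changes, and 2.83% of its calls were false. A gene that is not called can therefore still differ. The simulated data gave only 283 calls over 3 runs, so these shares need not hold in the deposited data. Identifiers matched GENCODE M21 for 99.9% of genes.

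The 10 genes and the 20 other lists were chosen with earlier results of these data known. Named are the 10 genes, their 3 nearest neighbours, Gaa, Ltbp4, and from each pathway list up to 3 genes called in mixed KO against WT or with treatment, by smallest adjusted p in the first. A gene that this rule names among the other ligases is not reported here. The columns of 2 treated cord samples were joined by animal number. Levels of cord and quadriceps were not compared.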

Additional observations from a re-analysis of the deposited data

How the results depend on the processing

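Over 60 results and 23 alternatives, 155 of 161 values of called genes stayed called, 0 called values reversed, and 62 values called in neither setting changed sign. A further 21 values not called in the main fit were called in an alternative. Many alternatives leave out a library of another group, which cannot change the difference itself. Leaving out a library of the groups compared kept the Fbxo21 treatment call in 2 of 6 fits and the Cblb call on B6129 in 4 of 6. Genes called among the 10 on B6129 went from 2 (35.8% of all genes) to 6 in a fit of only the groups compared (41.2% of all genes) and to 5 without mixed WT animal 4 and treated animal 22 (39.5%), an alternative chosen after seeing the data. Leaving out 1 library at a time gave 1 to 3 on B6129, 2 to 4 on the mixed background, 2 to 4 with treatment, 0 to 1 for treated KO against WT and 0 to 1 for WT against WT, where edgeR gave 1. In the first 3 of these, the same fits called 3878 to 5476, 4246 to 5541 and 4751 to 6115 of all 14113 tested genes. Over all genes, treated KO against WT called 421, and 17 in the fit of only the groups compared, 57 without both animals and 124 to 448 leaving out 1 library. The difference of the KO effect called 40, and 10 with edgeR, 26 without both animals and 11 to 116 leaving out 1 library. WT against WT called 363, and 156 in the fit of only the groups compared, 231 without both animals and 187 to 596 leaving out 1 library. The cause was not tested. Runx1 in WT quadriceps and cord rests on few reads. No paired analysis was possible because the groups compared hold different animals and share fewer than 2 replicate numbers.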
